A study of Rattus norvegicus with 6 samples.

Results

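The proteasome is the barrel-shaped protease that degrades ubiquitin-tagged proteins, and its subunit genes were followed here in rat skeletal muscle after acute osteofascial compartment syndrome (ACS), in which pressure inside a closed muscle compartment limits blood flow. The members were all genes of the deposited table whose symbol starts with Psma, Psmb, Psmc, Psmd, Psme, Psmf or Psmg followed by a number and holds no hyphen. This name rule found 48 of 30957 genes. By known role they fell into 8 alpha subunits and 7 constitutive beta subunits of the 20S core, 4 alternative catalytic beta subunits (3 of the immunoproteasome and the thymus form Psmb11), 6 ATPases and 11 non-ATPase subunits of the 19S cap, 4 members of other caps with the inhibitor Psmf1, 7 assembly chaperones and Psmc3ip. Psmc3ip met the rule by name only, since it is a cofactor of meiotic recombination and not a proteasome subunit. The activator gene Psme3 was not matched by symbol in the table and was not analysed here.

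In the 20S core, 2 outer rings of alpha subunits gate the entry and 2 inner rings of beta subunits hold the active sites, in Psmb5 (chymotrypsin-like), Psmb6 (caspase-like) and Psmb7 (trypsin-like). The 19S cap recognises ubiquitin chains, removes them and uses its ATPases to unfold and thread the substrate, and dedicated chaperones build core and cap. In cells exposed to interferon, Psmb8, Psmb9 and Psmb10 take the places of Psmb5, Psmb6 and Psmb7 in newly built cores. In skeletal muscle the ubiquitin-proteasome system is a main route by which myofibrillar proteins are removed during wasting, and cells under proteotoxic stress can raise the subunit genes together through the transcription factor Nfe2l1.

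The ACS group held 3 libraries of the flexor digitorum longus, a toe-flexing hind-limb muscle, taken 18 h after a low-elastic band was tied around the knee, and the control group held 3 libraries of the same muscle at 0 h. All were wild-type Sprague-Dawley rats, whose age and sex are not given in the labels. RNA was total RNA depleted of ribosomal RNA. The treatment field reads ACS for the controls too, so groups came from the titles. No control at 18 h was analysed here, so ACS and time cannot be told apart. Since the labels name no separate animals behind the libraries, the p-values cover only variation among these 6 samples, and that variation may be technical.

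Library totals were 14340865 to 19376341 counts in ACS and 18450886 to 21003928 in control muscle. ACS replicate 1 stood apart: mitochondrial-chromosome genes took 43.4% of its counts, against 4.82% and 5.33% in ACS replicates 2 and 3 and 7.52% to 8.60% in control muscle. Of 10 markers of muscle fibres 7 were matched and tested and 0 passed the test, with a summed level of 79715, 114052 and 192188 CPM in the ACS libraries, against 125124 to 147562 CPM in the control libraries. CPM here means read counts scaled by library size and TMM factors, which assume that most genes do not differ. Of 11 leukocyte markers 9 were tested, 5 of them rose (against 3.43% of all genes, by edgeR's test below), none was at 0 counts throughout, and their summed level was 509, 48.2 and 101 CPM in ACS replicates 1, 2 and 3, against 19.6 to 24.0 CPM in the control libraries. Fibroblast markers (5 of 5 tested, 0 passed) summed to 2318 to 2960 CPM in ACS and 689.8 to 1076 CPM in control muscle, and endothelial markers (4 of 5 matched, 0 passed) to 147 to 399.6 CPM in ACS and 148 to 225 CPM in control muscle.

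No proteasome gene passed the test between ACS and control muscle. In edgeR's quasi-likelihood fit over 12873 genes, 4.14% had a Benjamini-Hochberg adjusted p under 0.05 (3.43% higher in ACS and 0.707% lower), while 0 of the 46 members that passed the filter on low counts did. DESeq2, limma-voom and limma on log2(FPKM + 1) also called 0 members, against 11.9%, 2.59% and 4.68% of all genes tested. At an unadjusted p under 0.05 in edgeR, 2 of the 46 members (4.35%) passed, Psmb2 and Psmg3, against 23.5% of all genes. The ACS and control libraries did not overlap in 10 of the 46 (21.7%), against 31.5% of all genes, and these 10 were split evenly between 5 above (Psma3, Psma4, Psmc6, Psmd9 and Psmf1) and 5 below (Psmb5, Psmb9, Psmg2, Psmg3 and Psmg4). The data are from bulk tissue, in which fewer cells of a type and less RNA per cell cannot be told apart.

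The absence of a call does not show that the levels were equal, and the intervals give the sizes left possible. The 95% interval of the log2 fold change lay within 2-fold in both directions for 23 of the 46 members (50%), against 25.4% of all genes tested, and included 0 for 44. The farthest interval bounds of the 46 were -2.07 (Psmg3) and 1.91 (Psmd11). The log2 fold change was positive for 29 and negative for 17 of the 46, with a median of 0.18 over the members and -0.011 over all genes tested. That sign depended on scaling: relative to library totals the median was -0.10 for the members and -0.32 for all genes, with 14 of 46 positive, and on the log2(FPKM + 1) scale it was -0.15 for the members and -0.30 for all genes, with 14 of 45 positive. In each of these the members' median lay 0.15 to 0.22 above that of all genes. With 1 library left out, on the TMM scale, that distance ranged from 0.071 (without control replicate 1) to 0.30 (without ACS replicate 1). The log2 fold changes below are on the TMM scale, where the all-gene median is close to 0.

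**Figure D1:**
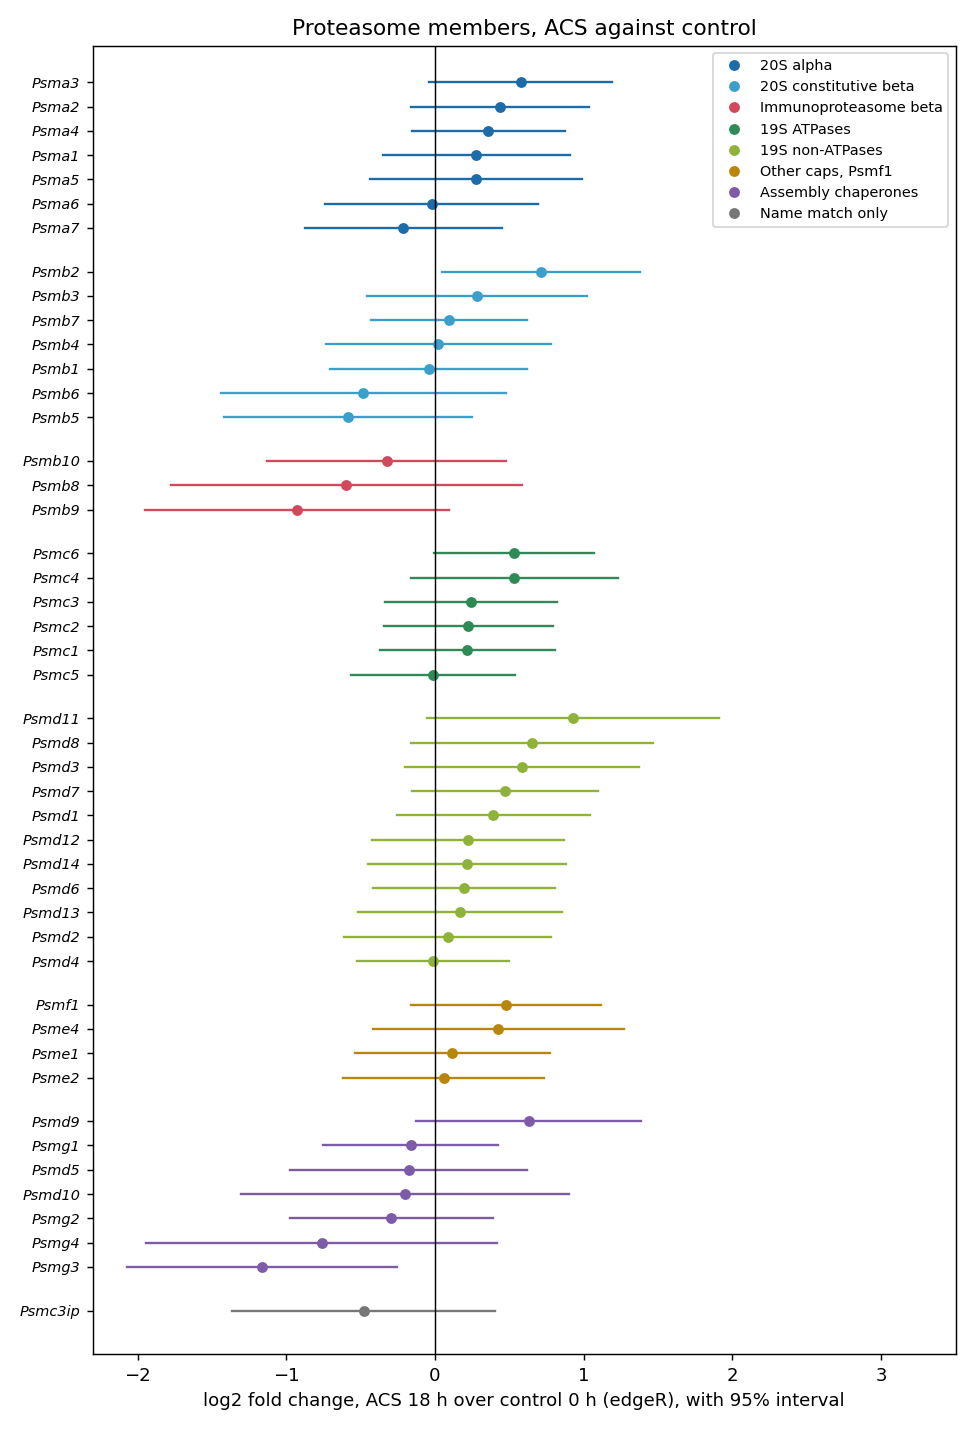
Log2 fold change of each of the 46 tested members, ACS 18 h over control 0 h, with its 95% interval (edgeR), grouped by role and sorted within groups. Intervals of 44 members cross 0, those of Psmb2 and Psmg3 do not, and none of the 46 passed the adjusted threshold.

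Proteasome genes are known targets of factors that bind antioxidant response elements, and the induced subunits of factors that bind interferon-stimulated elements, so the promoters of members that the results turn on were searched for both. Promoter sequences came from RefSeq on the later build GRCr8 (250 bases before to 50 after the gene start) and were found for 43 of the 48 members. Psma7, Psmb11, Psmd6, Psmd12 and Psmd14 had no entry. Psmb2 and Psmb5 are shown because they hold the same core TGACNNNGC while lying at opposite ends of the constitutive beta subunits. Psmb8 and Psmb10 are shown because they hold the interferon-stimulated letters, GAAA with any 2 bases before another GAAA, once in Psmb8 on the opposite strand and in 2 places in Psmb10. Sequences run 5′ to 3′ on the gene's strand, and capitals mark the match, in either orientation.
Psmb2, chr5:144254808-144255107, plus strand: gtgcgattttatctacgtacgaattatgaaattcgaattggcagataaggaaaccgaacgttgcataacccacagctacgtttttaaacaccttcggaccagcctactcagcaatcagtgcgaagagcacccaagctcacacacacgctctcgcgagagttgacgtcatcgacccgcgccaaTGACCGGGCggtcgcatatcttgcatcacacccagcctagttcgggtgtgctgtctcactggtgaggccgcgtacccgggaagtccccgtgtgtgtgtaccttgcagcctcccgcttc
Psmb5, chr15:32047330-32047629, minus strand: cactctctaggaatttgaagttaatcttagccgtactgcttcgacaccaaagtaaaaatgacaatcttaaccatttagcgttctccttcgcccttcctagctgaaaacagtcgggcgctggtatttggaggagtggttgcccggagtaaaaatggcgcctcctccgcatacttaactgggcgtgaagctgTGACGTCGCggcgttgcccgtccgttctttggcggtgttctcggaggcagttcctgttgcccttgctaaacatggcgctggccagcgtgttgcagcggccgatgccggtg
Psmb8, chr20:4656982-4657281, minus strand: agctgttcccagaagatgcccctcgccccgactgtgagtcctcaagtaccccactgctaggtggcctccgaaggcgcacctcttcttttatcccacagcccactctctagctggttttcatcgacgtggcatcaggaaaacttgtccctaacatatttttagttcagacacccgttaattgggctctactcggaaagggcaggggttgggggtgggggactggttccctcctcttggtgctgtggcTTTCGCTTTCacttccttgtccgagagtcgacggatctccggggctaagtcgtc
Psmb10, chr19:50743243-50743542, minus strand: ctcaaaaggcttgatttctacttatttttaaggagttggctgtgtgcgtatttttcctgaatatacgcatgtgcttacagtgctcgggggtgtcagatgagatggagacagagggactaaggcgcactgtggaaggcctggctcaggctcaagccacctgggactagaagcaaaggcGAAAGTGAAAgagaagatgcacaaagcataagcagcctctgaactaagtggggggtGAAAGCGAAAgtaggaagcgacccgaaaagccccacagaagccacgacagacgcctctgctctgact

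With both strands searched, TGACNNNGC was present in 8 of 43 member promoters (18.6%), against 12.1% of 33469 rat promoters of the same length. The 8 were Psma3, Psmb2, Psmb5, Psmb6, Psmd1, Psmd3, Psmd9 and Psme4, and their log2 fold changes ranged from -0.59 to 0.71. The interferon-stimulated letters were present in 7 (16.3%), against 3.92% of all promoters: Psma4, Psmb3, Psmb8, Psmb10, Psmd7, Psme2 and Psmg4. Psmb9 and Psmg3 held neither of these letters in the window. The GC box GGGCGG was present in 31 (72.1%), against 33.1% of all promoters, including all 7 alpha subunits with an entry, and CCAAT in 21 (48.8%), against 37.5%. A match is a description of the window and not a binding site.

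The order of levels within the complex was read from FPKM, which scales counts by gene length and library total. In control muscle the highest member was Psmb1, a non-catalytic beta subunit, with 88.5 ± 34.9 FPKM in ACS and 111 ± 18.8 FPKM in control muscle (SD, n = 3 each). The mean FPKM of the tested constitutive beta subunits ranged over 29.9 to 88.5 in ACS and 38.6 to 111 in control muscle. The 19S ATPases ranged over 30.2 to 82.2 FPKM in ACS and 26.2 to 87.1 FPKM in control muscle, and the non-ATPase subunits over 19.5 to 76.9 FPKM in ACS and 20.4 to 75.8 FPKM in control muscle. The core and cap genes thus spanned less than an order of magnitude.

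The assembly chaperones and the induced catalytic subunits lay mostly below the core and cap genes per length, with Psmg1 overlapping them. The assembly chaperones ranged over 2.01 to 14.98 FPKM in ACS and 2.98 to 20.6 FPKM in control muscle. Psmb8, Psmb9 and Psmb10 averaged 0.443, 0.517 and 2.88 FPKM in ACS and 0.873, 1.25 and 4.59 FPKM in control muscle. For Psmb8 the length implied by the authors' FPKM (3883 bp) exceeded the span of its locus (3157 bp), so its level per length is uncertain. Among activators of the core, Psme4, which forms a single-protein cap, stood far above Psme2, with 72.1 ± 34.2 FPKM in ACS and 65.4 ± 23.5 FPKM in control muscle (SD, n = 3 each), against 3.31 ± 0.524 FPKM in ACS and 3.96 ± 0.332 FPKM in control muscle (SD, n = 3 each) for Psme2. Of the 45 pairs of neighbours in the control order, 37 differed by less than the larger of their SDs, so the order among close members is not resolved.

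**Figure D2:**
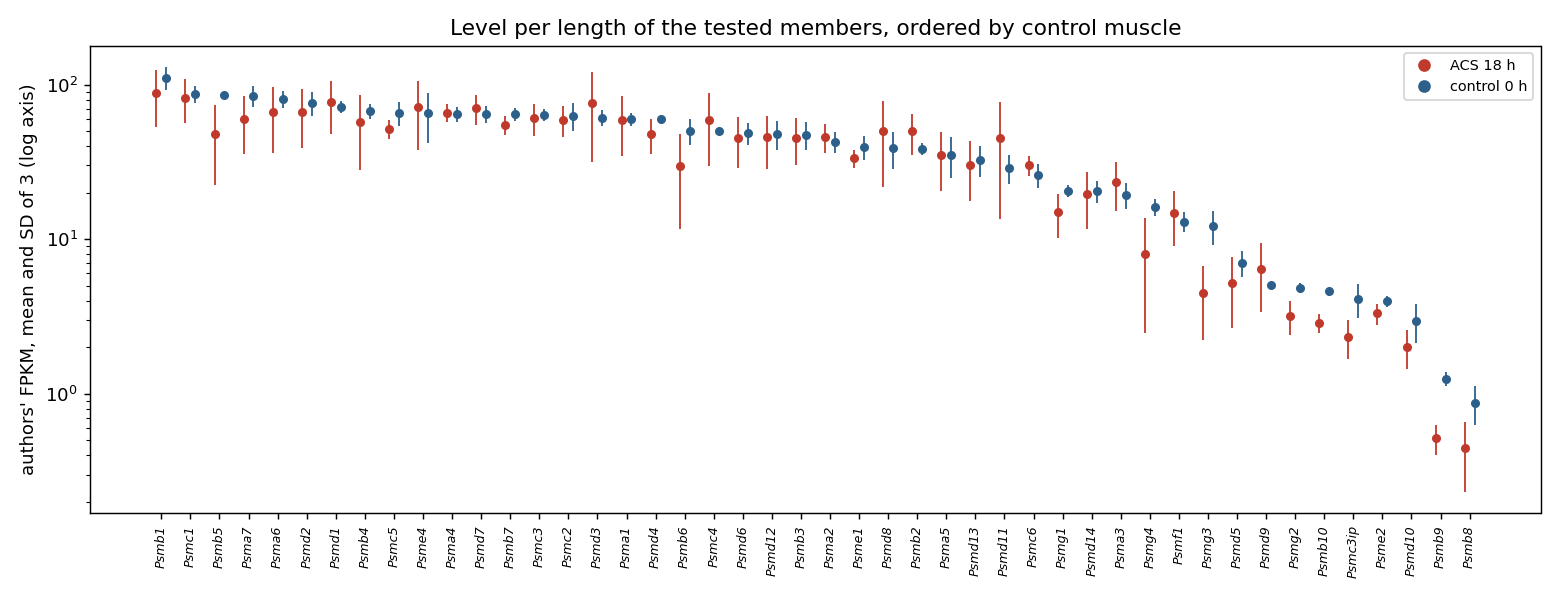
Mean of the authors' FPKM of each tested member (points) with the SD of 3 libraries (lines) in ACS and control muscle, on a log axis, sorted by the control mean. Core and cap genes fill the upper part, and Psmb8, Psmb9 and Psme2 stand near the bottom.

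Of the 7 tested alpha subunits, which form the gated outer rings, 5 had a positive log2 fold change and 0 passed the test, with a median of 0.28, or -0.01 relative to library totals. Psma3 lay at chr6:93423002-93444240 on Rnor 6.0 (plus strand) and had 89.2, 124 and 81.8 CPM in the ACS libraries, against 53.5, 70.2 and 74.0 CPM in the control libraries. Its groups did not overlap, and its mean was 98.3 ± 22.5 CPM in ACS and 65.9 ± 10.9 CPM in control muscle (log2 fold change 0.58, SE 0.270, 95% interval -0.038 to 1.19, edgeR adjusted p = 0.237). Without ACS replicate 2 the log2 fold change was 0.34. A separate locus described as Psma3-like, LOC100361067, held 184, 489 and 363 counts in the ACS and 295, 413 and 535 counts in the control libraries. Its log2 fold change was 0.15 (SE 0.278, edgeR adjusted p = 0.767). The Psma3 value is thus uncertain as far as reads of the copies are alike. Psma4 had 88.2, 85.1 and 78.4 CPM in the ACS libraries, against 58.6, 71.7 and 65.9 CPM in the control libraries, also without overlap (log2 fold change 0.36, edgeR adjusted p = 0.369). The other tested alpha subunits overlapped between groups: Psma1, Psma2 and Psma5 had log2 fold changes of 0.28, 0.44 and 0.28, and Psma6 and Psma7 of -0.022 and -0.21. Psma8, a testis form of an alpha subunit, had 0 counts in all 6 libraries, where a floor of 3 counts equals 0.143 to 0.209 CPM before scaling.

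The constitutive beta subunits did not share a direction, with 4 of 7 positive and a median of 0.022, and 0 passed the test. Psmb2, a non-catalytic beta subunit whose promoter is printed above, at chr5:144701949-144734257 (plus strand), was singled out after its values were seen and had 60.9, 56.5 and 32.1 CPM in the ACS libraries, against 29.2, 33.5 and 28.6 CPM in the control libraries. ACS replicates 1 and 2 lay well above every control library and ACS replicate 3 inside the control range. Its mean was 49.9 ± 15.5 CPM in ACS and 30.4 ± 2.69 CPM in control muscle (log2 fold change 0.71, SE 0.293, 95% interval 0.045 to 1.38, edgeR adjusted p = 0.186). Without ACS replicate 3 its log2 fold change was 0.94 (SE 0.226, edgeR adjusted p = 0.0396), the single call of any member in any of the alternatives run, where 12.7% of all genes passed. Over all settings run its log2 fold change ranged from 0.32 to 0.94. Psmb1, Psmb3 and Psmb4, the other non-catalytic subunits, had log2 fold changes of -0.043, 0.28 and 0.022.

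The 3 constitutive catalytic subunits differed among themselves. Psmb5, the chymotrypsin-like subunit with the same promoter core as Psmb2, at chr15:33259043-33263659 (minus strand), had 21.5, 53.6 and 58.8 CPM in the ACS libraries, against 69.3, 68.5 and 63.4 CPM in the control libraries. All ACS libraries lay below all control libraries, and ACS replicate 1 lay lowest. The means were 44.6 ± 20.2 CPM in ACS and 67.1 ± 3.17 CPM in control muscle (log2 fold change -0.59, SE 0.365, 95% interval -1.42 to 0.25, edgeR adjusted p = 0.366). Psmb6, the caspase-like subunit, had 9.73, 24.0 and 34.9 CPM in the ACS libraries, against 28.6, 29.5 and 37.9 CPM in the control libraries, with ACS replicate 1 again the lowest of the 6 (log2 fold change -0.48, SE 0.421, 95% interval -1.44 to 0.48, edgeR adjusted p = 0.519). Without ACS replicate 1, whose mitochondrial share was 43.4%, the log2 fold changes were -0.26 for Psmb5 and -0.12 for Psmb6, and without ACS replicate 3 that of Psmb6 was -0.92. Psmb7, the trypsin-like subunit, had 121, 118 and 116 CPM in the ACS libraries, against 107, 122.8 and 103 CPM in the control libraries. Its groups overlapped and its mean differed by less than the control SD (log2 fold change 0.092, edgeR adjusted p = 0.834), and its log2 fold change was -0.23 relative to library totals. The Psmb7 locus overlaps Nek6 on the opposite strand, and whether counting used strand was not stated, but Nek6 held 609 counts in all libraries together, against 12914 for Psmb7.

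The induced catalytic subunits Psmb8, Psmb9 and Psmb10 were low in both groups and none had a positive log2 fold change. Psmb8, the interferon-induced counterpart of Psmb5, had 3.56, 1.13 and 1.45 CPM in the ACS libraries, against 3.36, 3.72 and 2.02 CPM in the control libraries (log2 fold change -0.60, SE 0.518, 95% interval -1.78 to 0.58, edgeR adjusted p = 0.517). ACS replicate 1 was at the level of the controls, and ACS replicates 2 and 3 were below all of them. Psmb9, the counterpart of Psmb6, had 1.404, 0.669 and 0.893 CPM in the ACS libraries, against 2.00, 1.98 and 1.57 CPM in the control libraries, with all ACS libraries below all control libraries (log2 fold change -0.93, SE 0.448, 95% interval -1.95 to 0.094, edgeR adjusted p = 0.250). Psmb10, the counterpart of Psmb7 and the member with 2 interferon-stimulated matches, had 4.30, 2.42 and 3.13 CPM in the ACS libraries, against 4.44, 4.11 and 3.72 CPM in the control libraries (log2 fold change -0.32, SE 0.352, 95% interval -1.13 to 0.48, edgeR adjusted p = 0.607). Here too only ACS replicate 1 was inside the control range. Without it the log2 fold changes were -1.23 for Psmb8, -1.24 for Psmb9 and -0.56 for Psmb10, and without ACS replicate 2 they were -0.34, -0.74 and -0.18. None passed. These values rest on few reads. In the ACS libraries Psmb8 had 38, 22 and 26 counts, Psmb9 15, 13 and 16, and Psmb10 46, 47 and 56. In the control libraries Psmb8 had 69, 77 and 49 counts, Psmb9 41, 41 and 38, and Psmb10 91, 85 and 90. The remaining alternative subunit, Psmb11 of the thymus, had 0, 2 and 4 counts in the ACS libraries and 0 in every control library and was not tested.

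**Figure D3:**
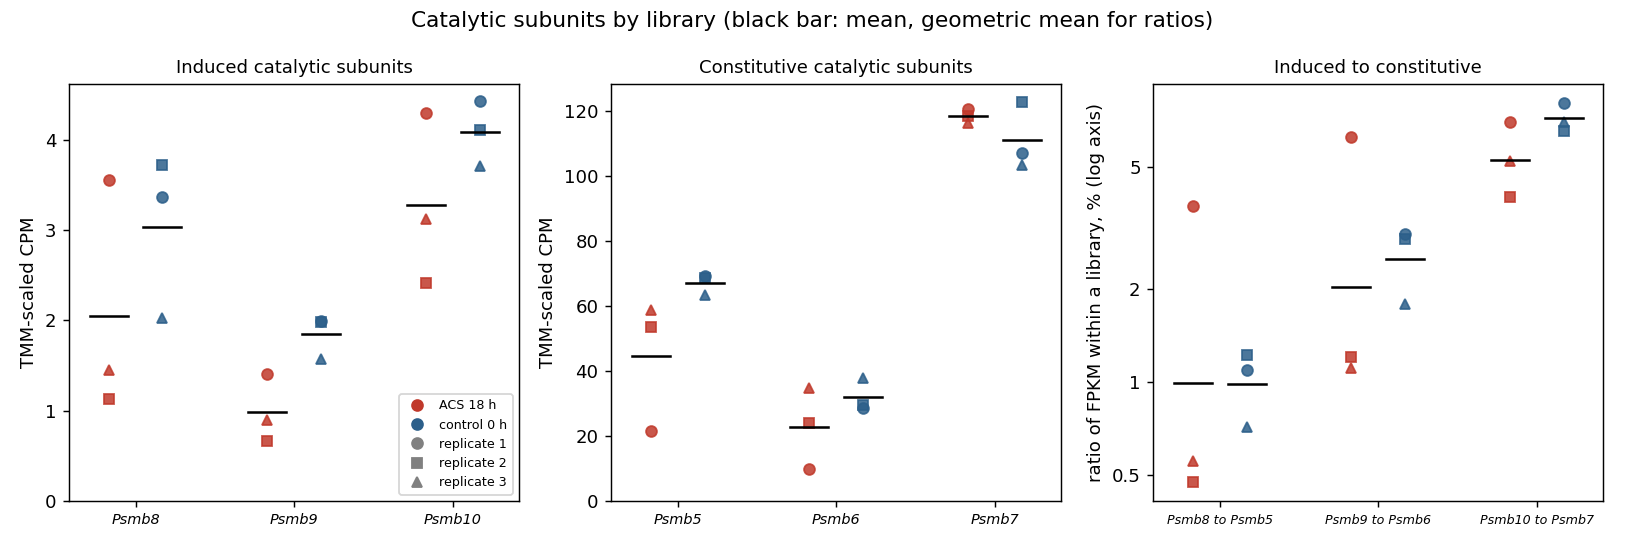
TMM-scaled CPM, with the mean as a bar, of the induced (left) and constitutive (middle) catalytic subunits by library, and the FPKM of each induced subunit as a percentage of its constitutive counterpart on a log axis with the geometric mean (right). ACS replicate 1 is the highest ACS library for the induced subunits and the lowest for Psmb5 and Psmb6, which sets it apart in the Psmb8 to Psmb5 and Psmb9 to Psmb6 ratios.

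The ratio of an induced subunit to the one it replaces was taken from FPKM within each library. As a percentage of Psmb5, Psmb8 stood at 3.71%, 0.475% and 0.555% in the ACS libraries, against 1.09%, 1.22% and 0.717% in the control libraries. The size of these percentages is uncertain, since the length behind the Psmb8 FPKM (3883 bp) exceeds its locus span (3157 bp). ACS replicate 1 lay above all controls and ACS replicates 2 and 3 below them, so the mean log2 ratio differed by 0.011 (2-sided exact permutation p = 1), and by -0.94 without ACS replicate 1. As a percentage of Psmb6, Psmb9 stood at 6.26%, 1.21% and 1.11% in the ACS libraries, against 3.03%, 2.92% and 1.80% in the control libraries, a mean log2 difference of -0.31 (exact permutation p = 0.8, adjusted over 3 ratios 1). As a percentage of Psmb7, Psmb10 stood at 6.95%, 3.97% and 5.23% in the ACS libraries, against 8.06%, 6.52% and 6.997% in the control libraries, a mean log2 difference of -0.45 (exact permutation p = 0.2, adjusted 0.6). With 3 libraries against 3 the smallest p this test can give is 0.1, so none of the ratios could pass a threshold of 0.05.

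Of 8 genes that interferon also induces in antigen processing, all were matched and tested and 0 passed, with a median log2 fold change of 0.39. Nlrc5, the transactivator of class I antigen presentation genes, had 11.8, 5.92 and 3.35 CPM in the ACS libraries, against 3.46, 2.90 and 2.27 CPM in the control libraries (log2 fold change 1.28, edgeR adjusted p = 0.157). Its log2 fold change was 0.69 without ACS replicate 1. Without ACS replicate 3, where 12.7% of all genes passed, Nlrc5 passed (1.61, edgeR adjusted p = 0.0432), and it did so in no other setting run. Tap1, a subunit of the peptide transporter that feeds proteasome products to class I molecules, had 6.92, 6.38 and 4.02 CPM in the ACS libraries, against 3.56, 2.61 and 3.10 CPM in the control libraries, with all ACS libraries above all controls (log2 fold change 0.90, edgeR adjusted p = 0.168). B2m, the light chain of class I molecules, had 716, 95.9 and 116 CPM in the ACS libraries, against 104, 96.1 and 84.6 CPM in the control libraries, and the transcription factor Irf1 had 43.3, 9.21 and 5.58 CPM in the ACS libraries, against 7.46, 6.77 and 9.09 CPM in the control libraries. ACS replicate 1 was the highest of the 6 libraries for each of these 4 genes, as it was for the summed leukocyte markers (509 CPM, against 48.2 and 101 CPM in ACS replicates 2 and 3). The part of leukocyte RNA in the levels of the induced subunits was not tested.

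In the 19S cap 15 of 17 genes had a positive log2 fold change (median 0.22), against 49.3% of all genes tested, and 0 passed the test. Psmc6, one of the 6 ATPases of the ring that unfolds substrates, at chr15:19667453-19688914 (plus strand), had 84.1, 83.2 and 73.5 CPM in the ACS libraries, against 46.1, 58.4 and 61.9 CPM in the control libraries. Its groups did not overlap, with means of 80.3 ± 5.87 CPM in ACS and 55.5 ± 8.32 CPM in control muscle (log2 fold change 0.53, SE 0.236, 95% interval -0.0046 to 1.07, edgeR adjusted p = 0.215). The other ATPases overlapped between groups, with log2 fold changes from -0.012 (Psmc5) to 0.53 (Psmc4). Relative to library totals, where the median of all genes is -0.32, the median of the ATPases was -0.08 and that of the non-ATPase subunits -0.07, so the sign of both groups turned with the scaling.

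Among the 11 non-ATPase subunits, which hold the scaffold, the ubiquitin receptors and the deubiquitinating enzyme, 10 had a positive log2 fold change and 0 were free of overlap. Psmd11, a lid subunit that helps to hold cap and core together, had the largest value of all 46, and it was singled out after its values were seen. It had 166, 320.1 and 94.8 CPM in the ACS libraries, against 80.6, 105 and 119 CPM in the control libraries. ACS replicates 1 and 2 lay above every control library and ACS replicate 3 inside their range, giving 194 ± 115 CPM in ACS and 102 ± 19.5 CPM in control muscle (log2 fold change 0.93, SE 0.432, 95% interval -0.055 to 1.91, edgeR adjusted p = 0.234). Over all settings run its log2 fold change ranged from 0.31 to 1.38, with no call. Psmd8 and Psmd3, also of the lid, had log2 fold changes of 0.65 and 0.58. Psmd14, the deubiquitinase of the lid, had 22.4, 36.1 and 41.9 CPM in the ACS libraries, against 24.3, 31.1 and 31.0 CPM in the control libraries (log2 fold change 0.22, edgeR adjusted p = 0.680), and Psmd4, a ubiquitin receptor, had 66.5, 82.7 and 72.1 CPM in the ACS libraries, against 73.0, 72.7 and 77.8 CPM in the control libraries (log2 fold change -0.014, edgeR adjusted p = 0.978). Psmd1 and Psmd2, the large scaffold subunits of the cap base, had log2 fold changes of 0.39 and 0.085, and Psmd6, Psmd7, Psmd12 and Psmd13 lay between 0.17 and 0.47.

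The libraries of ACS muscle differed among themselves more than the control libraries did. ACS replicate 2 was the highest of the 6 libraries for 12 of the 17 cap genes and for 20 of all 46 members (43.5%), against 17.2% of all genes tested. ACS replicate 1 was the lowest of the 6 libraries for 16 of the 46 members (34.8%), against 32.8% of all genes. Control replicate 1 was the lowest library for 10 of the 17 cap genes and for 16 of the 46 members (34.8%), against 14.5% of all genes. The median log2 level of the non-ATPase subunits relative to the control mean was -0.16, 0.52 and 0.12 in ACS replicates 1, 2 and 3, and that of the ATPases 0.19, 0.45 and 0.11. Without ACS replicate 2 the median log2 fold change over the members was 0.04, against -0.053 over all genes. Without control replicate 1 the members' median was 0.03, against -0.044 over all genes. Over the 46 members the median spread between the highest and lowest library on the log2 scale was 0.85 within ACS and 0.37 within control muscle, against 1.01 and 0.48 for all genes.

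**Figure D4:**
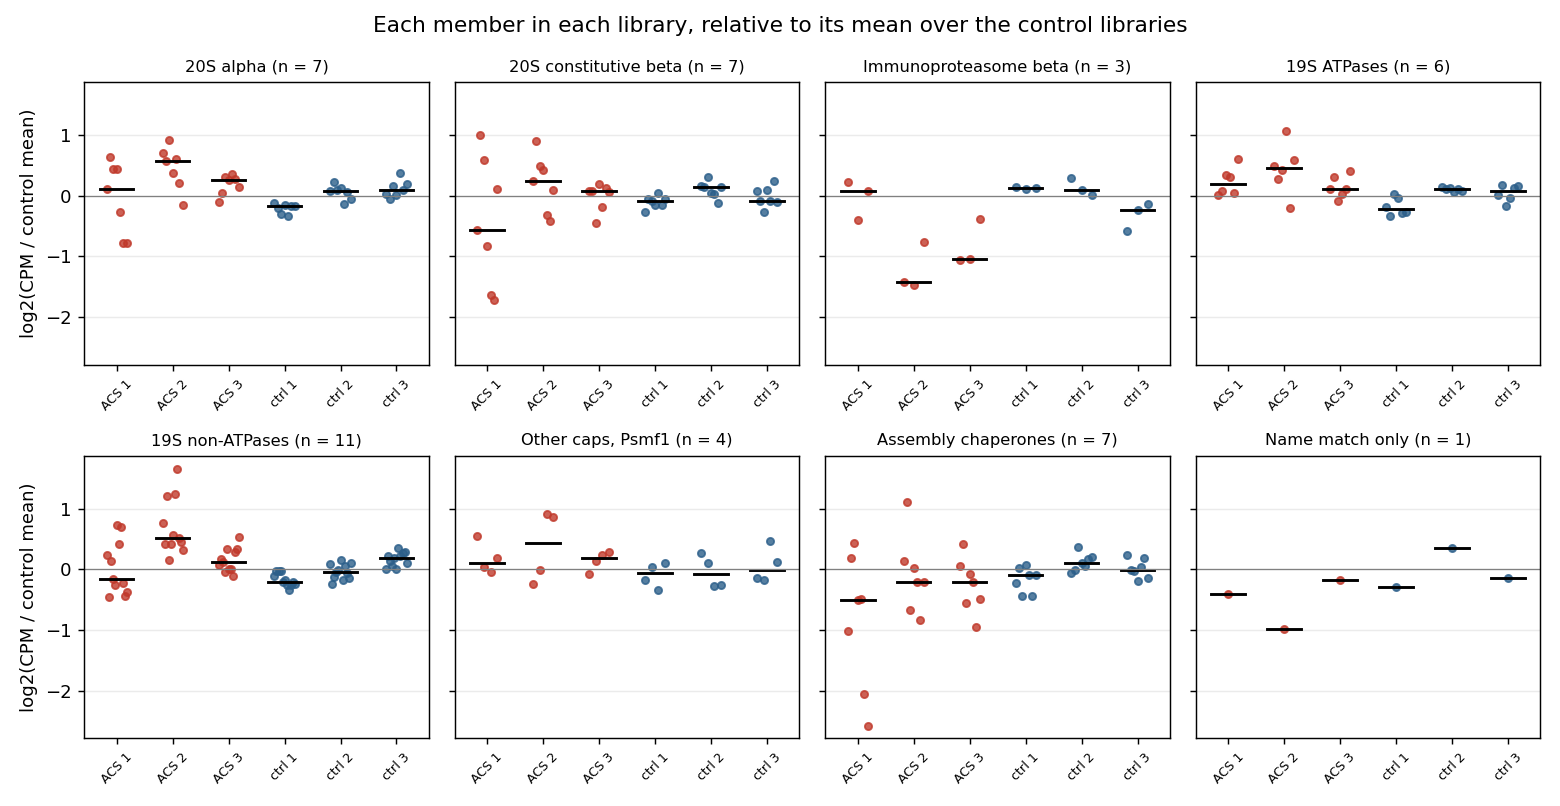
Log2 of the TMM-scaled CPM of each tested member (points) in each library, relative to its mean over the control libraries, in a panel per role, with the panel's median as a bar and ACS libraries left of control (ctrl) libraries. The medians of cap genes are highest in ACS replicate 2, and the lowest points of the constitutive beta subunits and the chaperones are in ACS replicate 1.

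The other caps and the inhibitor gave no call. Psme1 and Psme2 encode the 2 subunits of the ring-shaped activator that opens the core without ATP and is best known from antigen processing. Psme1 had 51.4, 29.7 and 33.6 CPM in the ACS libraries, against 31.3, 42.4 and 32.0 CPM in the control libraries (log2 fold change 0.12, edgeR adjusted p = 0.831). Its groups overlapped, ACS replicate 1 was the highest library, and without it the log2 fold change was -0.16. Emc9, on the opposite strand, shares 2574 bp with Psme1 and held 499 counts over all libraries, against 4021 for Psme1. Psme2 had 4.87, 4.73 and 5.19 CPM in the ACS libraries, against 4.88, 5.13 and 4.21 CPM in the control libraries (log2 fold change 0.058, edgeR adjusted p = 0.925), and its 6 libraries lay within 1 CPM of each other. Psme4 had 425, 819 and 513 CPM in the ACS libraries, against 344, 361 and 602 CPM in the control libraries (log2 fold change 0.43, edgeR adjusted p = 0.517), with control replicate 3 above ACS replicates 1 and 3. Psmf1, which inhibits the core in vitro, had 18.2, 29.1 and 19.6 CPM in the ACS libraries, against 17.2, 13.4 and 17.5 CPM in the control libraries, without overlap (log2 fold change 0.48, edgeR adjusted p = 0.339). The signs of the Psme1 and Psme2 values turned negative relative to library totals (-0.24 and -0.26).

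Psmg3, an assembly chaperone, had the lowest log2 fold change of the 46 members, followed by Psmb9 (-0.93) and Psmg4. Psmg1 with Psmg2 and Psmg3 with Psmg4 form 2 dimers that guide the building of the alpha ring, and all 4 had negative log2 fold changes, while 0 passed the test. Psmg3, at chr12:16899025-16901934 (plus strand), had 2.06, 4.84 and 4.46 CPM in the ACS libraries, against 6.34, 9.62 and 9.75 CPM in the control libraries. All ACS libraries lay below all control libraries, with means of 3.79 ± 1.51 CPM in ACS and 8.57 ± 1.93 CPM in control muscle (log2 fold change -1.16, SE 0.399, 95% interval -2.07 to -0.26, edgeR adjusted p = 0.123). Its unadjusted p in edgeR was 0.0178, the smallest of the 46 members. Psmg4, its partner, had 1.404, 7.20 and 5.97 CPM in the ACS libraries, against 7.85, 9.58 and 7.60 CPM in the control libraries, also without overlap and lowest in ACS replicate 1 (log2 fold change -0.76, SE 0.519, 95% interval -1.95 to 0.42, edgeR adjusted p = 0.409). Without that library the log2 fold changes were -0.88 for Psmg3 and -0.34 for Psmg4, without ACS replicate 2 that of Psmg4 was -1.17, and neither passed. In read counts, Psmg3 had 22, 94 and 80 in the ACS libraries, and Psmg4 had 15, 140 and 107.

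The other dimer differed less. Psmg2 had 3.65, 4.43 and 4.46 CPM in the ACS libraries, against 4.83, 5.32 and 5.24 CPM in the control libraries, without overlap (log2 fold change -0.29, edgeR adjusted p = 0.586), and Psmg1 had 13.0, 18.8 and 17.5 CPM in the ACS libraries, against 19.4, 19.8 and 16.1 CPM in the control libraries, with overlap (log2 fold change -0.16, edgeR adjusted p = 0.727). The chaperones of the cap base went in no common direction. Psmd9 had 6.92, 13.1 and 8.09 CPM in the ACS libraries, against 6.14, 6.05 and 6.03 CPM in the control libraries, so that all ACS libraries lay above 3 nearly equal controls (log2 fold change 0.63, SE 0.331, 95% interval -0.12 to 1.38, edgeR adjusted p = 0.286). Without ACS replicate 2, its highest library, the log2 fold change was 0.27. Psmd5 and Psmd10 overlapped between groups, with log2 fold changes of -0.18 and -0.20. The median over the 4 Psmg genes was -0.53, and relative to the control mean it was -1.28, -0.21 and -0.34 in ACS replicates 1, 2 and 3, so ACS replicate 1 lay farthest out. Psmc3ip, the name match with another role, had a log2 fold change of -0.48 (edgeR adjusted p = 0.488).

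Across the 46 members the log2 fold change had a Pearson's r with the log2 of the gene length behind the FPKM of 0.40 (Spearman's rho 0.41), against 0.035 over all 12873 genes tested. Taken library by library, as log2 CPM over the control mean, r was 0.35, 0.35 and 0.18 in ACS replicates 1, 2 and 3, and -0.0030, -0.36 and 0.23 in control replicates 1, 2 and 3, so single control libraries showed relations of like size. This is a description across genes of the same 6 libraries, and the members are not independent replicates. The short transcripts of Psmg3, Psmg4, Psmb5, Psmb6 and Psmd10 (793, 576, 873, 717 and 525 bp) go with negative values and the long one of Psmd11 (3954 bp) with the highest. The equally short Psmb2, Psma2, Psmb3 and Psmb4 (884, 874, 824 and 839 bp) go with positive values of 0.71, 0.44, 0.28 and 0.022. Psmb8 (3883 bp, a length above its locus span) has a negative value.

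Of 7 regulators of proteasome genes, all were tested, and 2 rose in ACS muscle, where 3.43% of all genes did. Maff and Mafk are small Maf proteins that pair with Nfe2l1 or Nfe2l2 on antioxidant response elements. Maff had 127, 171 and 92.5 CPM in the ACS libraries, against 9.22, 10.9 and 5.41 CPM in the control libraries, a mean of 129.9 ± 39.2 CPM in ACS and 8.52 ± 2.83 CPM in control muscle (log2 fold change 3.93, SE 0.383, edgeR adjusted p = 0.0082). Mafk had 145, 165 and 144 CPM in the ACS libraries, against 43.4, 37.4 and 43.9 CPM in the control libraries, a mean of 151 ± 12.1 CPM in ACS and 41.6 ± 3.63 CPM in control muscle (log2 fold change 1.86, SE 0.238, edgeR adjusted p = 0.0122). In both all ACS libraries lay far above all controls. Both calls were lost when any 1 control library was left out, as were those of all genes: without control replicates 1, 2 and 3 the edgeR adjusted p was 0.0922, 0.0918 and 0.0521 for Maff and 0.121, 0.122 and 0.0791 for Mafk. Mafk also did not pass without ACS replicate 3 and control replicate 3 together, the libraries with "ji" in the description (edgeR adjusted p = 0.0519).

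The other 5 regulators did not pass in edgeR. Under DESeq2, where 11.9% of all genes passed, Nfe2l2 (adjusted p = 0.0047), Mafg (adjusted p = 0.0438) and Ddi2 (lower, adjusted p = 0.0436) did. Nfe2l2, the oxidative stress factor, had 129, 90.6 and 56.8 CPM in the ACS libraries, against 30.4, 35.2 and 41.3 CPM in the control libraries (log2 fold change 1.37, SE 0.332, 95% interval 0.61 to 2.12, edgeR adjusted p = 0.0560). Its edgeR adjusted p was 0.0415 with no filter on low counts, 0.0498 with a filter of 50 counts in every library of a group, and 0.0149 without ACS replicate 3 (log2 fold change 1.62). It was 0.106 relative to library totals, 0.109 without ACS replicate 2, and 0.235, 0.224 and 0.168 without control replicates 1, 2 and 3. Nfe2l2 also did not pass under limma-voom (adjusted p = 0.0716) or limma on log2(FPKM + 1) (adjusted p = 0.120). Nfe2l1, which raises proteasome genes when the proteasome is impaired, had 315, 547 and 506 CPM in the ACS libraries, against 676, 592 and 521 CPM in the control libraries (log2 fold change -0.39, edgeR adjusted p = 0.492). Ddi2, the protease that releases active Nfe2l1, had 59.4, 116 and 138 CPM in the ACS libraries, against 224, 182 and 236 CPM in the control libraries, with all ACS libraries below all controls (log2 fold change -1.04, SE 0.347, 95% interval -1.82 to -0.25, edgeR adjusted p = 0.117). Ngly1, which removes sugars from Nfe2l1 for its activation, and Mafg, the remaining small Maf, had log2 fold changes of -0.14 and 1.01 (edgeR adjusted p = 0.773 and 0.0945). Mafg had 42.5, 30.9 and 26.2 CPM in the ACS libraries, against 13.4, 14.0 and 21.9 CPM in the control libraries. In 4 of the 7 regulators (Maff, Mafk, Nfe2l2 and Mafg) all ACS libraries lay above all controls, which held for 16.7% of all genes.

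**Figure D5:**
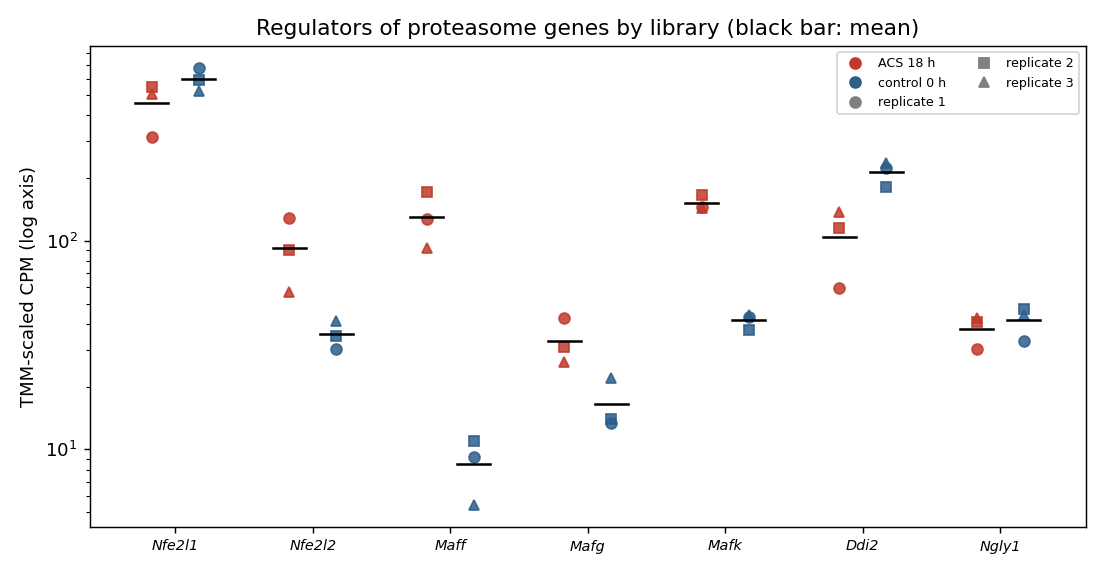
TMM-scaled CPM on a log axis of the 7 regulators of proteasome genes, by library, ACS left of control, with the mean as a bar. Maff and Mafk are higher in every ACS library and passed the test. Nfe2l2 and Mafg are also higher in every ACS library and did not pass the test. Ddi2 is lower in every ACS library and did not pass in edgeR.

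Genes that work with the proteasome but lie outside the name rule gave no call. Of 10 factors of the cap and of assembly, 8 were matched and tested, 0 passed, and their median log2 fold change was 0.30, where that of the members was 0.18. The smallest adjusted p among them was that of Txnl1, a thioredoxin of the cap, with 115, 116 and 75.5 CPM in the ACS libraries, against 51.8, 65.1 and 88.8 CPM in the control libraries (log2 fold change 0.58, edgeR adjusted p = 0.283). Pomp, the chaperone that matures the core, had a log2 fold change of -0.034, with 106, 234 and 438 counts in ACS and 242, 344 and 464 in control libraries. A separate locus described as Pomp-like, LOC100911238, held 168, 375 and 504 counts in the ACS and 399, 424 and 621 in the control libraries (log2 fold change -0.054). The Pomp value is thus uncertain as far as reads of the copies are alike. Of 13 genes of ubiquitin and substrate delivery, 11 were tested and 0 passed, with a median of 0.31. Rad23b, a shuttle that brings ubiquitinated proteins to the cap, had 324, 265 and 209.8 CPM in the ACS libraries, against 155, 149.8 and 194 CPM in the control libraries, without overlap (log2 fold change 0.68, edgeR adjusted p = 0.190). The unmatched genes of these lists were Paaf1, Ecpas, Ubb and Ufd1.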

How the data were processed

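RNA of rat flexor digitorum longus was measured in 3 ACS and 3 control libraries, grouped by the sample titles. The deposited table holds whole-number read counts per gene and the authors' FPKM (fragments scaled by gene length and depth). Per the submitters' processing notes, the tools included HISAT2 2.0.4 and StringTie 1.3.0 and the build was Rnor 6.0. The counting tool, its strand setting and its handling of multi-mapping reads are not stated. In 11174 of 11174 genes checked, the authors' FPKM equalled the deposited count over 1 length and the library total within 0.1%. No per-sample column was left unmapped (0).

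Genes were filtered with filterByExpr (minimum count 10, total 15), scaled by TMM and tested over all 12873 genes with edgeR 4.0.16 (quasi-likelihood F test, Benjamini-Hochberg, threshold 0.05, no fold limit, common biological coefficient of variation 0.381). SEs were derived from the F statistic and intervals are 95%. Alternatives were other scalings, filters, DESeq2 1.42.0, limma 3.58.1 (voom, and log2 FPKM plus 1 or 0.1 for genes at 1 FPKM in 3 libraries), a replicate block, a term for libraries with "ji" in the description (ACS replicate 3 and control replicate 3), and leaving out libraries. The scripts were tested on simulated data. Other software was R 4.3.3, Python 3.11.15, scipy 1.17.1 and matplotlib 3.10.9. Library totals of 14340865 to 21003928 counts give a floor of 3 counts at 0.143 to 0.209 CPM, for counting error only.

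Members, lists and motifs were chosen with earlier results of these data known. Values in every library are given for members past the threshold (none), for Psmb5 to Psmb10, Psme1 and Psme2, and for the 3 highest and 3 lowest log2 fold changes among members whose groups do not overlap. Other genes given with values were chosen after their values were seen. Coordinates are those of the deposited table, and promoters are RefSeq's on GRCr8. 1 gene of the delivery list is not reported here.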

Additional observations from a re-analysis of the deposited data

How the results depend on the processing

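Of the member calls, 0 were made under every setting except without ACS replicate 3, where Psmb2 passed as higher, so leaving out 1 library gave 0 to 1 members higher and 0 lower. The counts over all genes moved more. With 442 genes higher in ACS, DESeq2 gave 1320, limma-voom 262, limma on log2(FPKM + 1) 249, on log2(FPKM + 0.1) 199, no filter 755, a term for the "ji" libraries 248 and leaving both of those out 171. With 91 lower, library totals gave 228, DESeq2 429, limma on log2(FPKM + 1) 268, no filter 153, the "ji" term 32 and leaving both out 30. Leaving out 1 library gave 0 to 1286 higher and 0 to 398 lower. The 0 came from leaving out any 1 control, where edgeR still had 2063 to 2289 genes at an unadjusted p under 0.05.

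The members' median log2 fold change (0.18) was -0.10 with library totals, -0.15 on log2(FPKM + 1) and -0.16 on log2(FPKM + 0.1). In those 3 settings Psmb7 (0.092) was at -0.23, -0.23 and -0.23, Psme1 (0.12) at -0.24, -0.23 and -0.24, and Psme2 (0.058) at -0.26, -0.21 and -0.26. Psme2 was at -0.065 without both "ji" libraries. Leaving out 1 library moved Psme1 over -0.16 to 0.23 and Psme2 over -0.060 to 0.067. It moved the log2 ratio of Psmb8 to Psmb5 (0.011) over -0.94 to 0.54 and that of Psmb9 to Psmb6 (-0.31) over -1.12 to 0.13. Leaving out 1 library gave 0 to 1 interferon-linked genes and 0 to 3 regulators higher. The cause of these shifts was not tested. Among the named members the SE of the log2 fold change was highest for Psmg4 (0.519) and Psmb8 (0.518).

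Replicate numbers were not taken to pair the samples, since no label says that a number marks a shared animal. Same-numbered libraries deviated with correlations of -0.063, 0.011 and 0.040, and differently numbered ones with -0.069 to 0.064. With so few libraries these values cannot exclude a pairing. With the replicate block 442 genes were higher and 63 lower, 0 members were called either way, and the members' median was 0.15.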
